A study of Drosophila melanogaster with 3 samples.

Results

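The cytoplasmic large ribosomal subunit genes of Drosophila melanogaster were examined for binding of the CG12071 protein near their transcription start sites (TSSs). They were taken as all protein-coding genes of the Ensembl annotation whose symbol begins with RpL or RpLP followed by a number, which gave 54 genes of 13945. The same annotation held 38 cytoplasmic small subunit genes (RpS) and 47 mitochondrial large subunit genes (mRpL), used here for comparison. Chromatin immunoprecipitation followed by sequencing (ChIP-seq) was done on whole embryos of both sexes, 12 to 24 hours old, from flies in which CG12071 carries green fluorescent protein (GFP) fused at its C-terminal end. Sonicated fragments measured 200 to 800 bp. There were 3 biological replicates, all of 1 group, and no condition was compared with another. An input control is named in the samples' description lines, but every other field fits an immunoprecipitation with its own control file, and the replicates were treated as immunoprecipitations. In whole-embryo chromatin, a site bound in more cells and a site bound more strongly per cell cannot be told apart.

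The large subunit of the cytoplasmic ribosome joins amino acids at its peptidyl transferase centre and releases the chain through an exit tunnel, while its flexible stalk of P proteins recruits the translation factors. Its proteins are needed in nearly equal amounts by every growing cell, and flies with only 1 working copy of many of these genes show the Minute phenotype of slow development and short, thin bristles. In Drosophila their promoters often lack a TATA box and start transcription at a polypyrimidine initiator called TCT, and the genes are among the most highly transcribed in the genome.

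The stretches of promoter on which the summits lay are shown first for 5 of the genes with the strongest peaks. Each is 100 bases in the direction of transcription, 5' to 3', with 70 bases before the annotated TSS nearest to the summit and 30 bases from the TSS onward, taken from RefSeq's copy of genome release 6 (dm6). Capitals mark the 6-mer TTCTTT, the overlapping 6-mers TTTCCG and, shifted by a base, TTCCGG, and also the 8-mer GCCACACT, on either strand, which recurred at the summits of these genes and are counted further on. The windows are RpL14 at chr3L:8600936-8601035 (+ strand), RpL24 at chr2L:13395102-13395201 (- strand), RpL32 at chr3R:30046132-30046231 (- strand), RpL13A at chr3R:5624404-5624503 (+ strand) and RpL8 at chr3L:2587386-2587485 (+ strand).
RpL14: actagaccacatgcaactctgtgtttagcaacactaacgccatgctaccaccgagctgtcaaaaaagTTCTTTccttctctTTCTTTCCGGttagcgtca
RpL24: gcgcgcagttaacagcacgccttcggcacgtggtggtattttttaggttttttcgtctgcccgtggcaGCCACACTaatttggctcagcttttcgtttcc
RpL32: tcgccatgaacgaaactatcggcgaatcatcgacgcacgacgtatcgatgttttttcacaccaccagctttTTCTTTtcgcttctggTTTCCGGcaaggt
RpL13A: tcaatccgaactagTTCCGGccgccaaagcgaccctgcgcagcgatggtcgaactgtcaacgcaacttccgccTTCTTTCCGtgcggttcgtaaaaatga
RpL8: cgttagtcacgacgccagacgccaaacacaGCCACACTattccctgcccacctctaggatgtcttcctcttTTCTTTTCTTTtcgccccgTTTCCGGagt

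Of these 5 windows, 4 held at least 1 of the 3 marked 6-mers close to the TSS, and RpL24 and RpL8 held the 8-mer. The thresholded summits lay 9 bp before the TSS at RpL14, 12 bp after it at RpL24, 59 bp before it at RpL32, 21 bp before it at RpL13A and 19 bp after it at RpL8.

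A gene was called bound when the summit of a peak in the thresholded list, which holds the 4261 peaks that passed the authors' reproducibility filter, was no more than 500 bp from a TSS of the gene. By this rule 40 of the 54 large subunit genes were bound, 74.1% (Wilson 95% interval 61.1 to 83.9%), against a background of 13.4% of all protein-coding genes. Among the small subunit genes 24 of 38 were bound (63.2%, 47.3 to 76.6%), so that the intervals of the cytoplasmic subunits overlapped. The mitochondrial large subunit genes, which encode proteins of the ribosome inside mitochondria, were bound in 5 of 47 cases (10.6%, 4.63 to 22.6%), a share close to that of the remaining 13806 genes (13.0%). The intervals count genes only and do not describe the spread between embryos.

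The same difference was present within each replicate when only its 4261 strongest entries were used. Replicate 1 marked 42 large subunit genes (77.8%, background 15.6%), replicate 2 marked 44 (81.5%, background 14.2%) and replicate 3 marked 31 (57.4%, background 10.6%). The mean share was 72.2% ± 13.0 for large subunit genes, 62.3% ± 13.5 for small subunit genes, 9.22% ± 1.23 for mitochondrial genes and 13.5% ± 2.55 for all genes (SD, n = 3 replicates). The lowest replicate share of the large subunit genes lay above the highest share of the mitochondrial genes and of all genes, whereas the ranges of large and small subunit genes over the replicates overlapped. Within each replicate the share of large subunit genes was higher than that of small subunit genes, with 77.8% against 73.7% in replicate 1, 81.5% against 65.8% in replicate 2 and 57.4% against 47.4% in replicate 3. All 3 replicates marked the same 31 large subunit genes (57.4%, background 7.13%), and at least 1 replicate marked 45 (83.3%, background 20.5%). Of the 31, 30 were bound by the thresholded list, and RpL9 was not. The 31 bound genes with an entry of any rank in every replicate, used further on, are another set, with RpLP2 in place of RpL9. Replicate 3 held fewer entries that reached a q-value of 0.05 (4015 of 30000) than replicate 1 (13828) and replicate 2 (12616), and its part in the lower share was not tested.

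**Figure D1:**
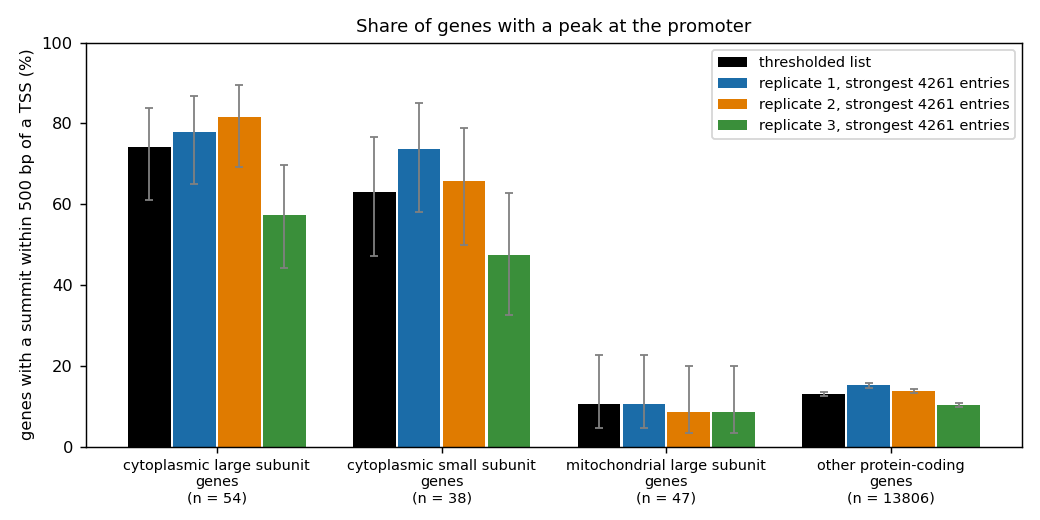
Share of genes with a summit within 500 bp of a TSS (y axis, percent) for 4 gene groups, in the thresholded list and in the 4261 strongest entries of each replicate; error bars are Wilson 95% intervals over genes. The large subunit genes stand at 57.4 to 81.5%, above the mitochondrial large subunit genes and the other protein-coding genes in every list.

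The peaks at large subunit genes were also strong ones. Entries were ranked within a list by the signal value in the authors' peak lists, with rank 1 the strongest. The median rank in the pooled list was 561.5 over the 40 bound large subunit genes, 767 over the 24 bound small subunit genes, 906 over the 5 bound mitochondrial genes and 1903 over the 1800 other bound genes. Among the 1000 strongest thresholded peaks were those of 32 large subunit genes (59.3% of 54, background 4.15%), and 80.0% of the bound large subunit genes against 29.4% of the other bound genes fell in that range. Ranks ran from 89 at RpL7 to 2963 at RpL29, and all 40 peaks stood at the highest −log10 q-value that the pooled list contains (3.90), so that value did not separate them.

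The strongest peaks are given replicate by replicate for the 10 bound genes with the best mean rank. RpL31, a protein of the rim of the exit tunnel, ranked 99, 112 and 296 in replicates 1, 2 and 3, a mean of 169 ± 110 (SD, n = 3). RpL14 (FBgn0017579), a protein of the subunit surface, ranked 138, 80 and 292, a mean of 170 ± 110. RpL24 (FBgn0032518), which reaches toward the small subunit, ranked 157, 95 and 350, a mean of 201 ± 133. In these 3 genes replicate 3 gave the weakest rank, and all 9 values were within the 350 strongest entries of their list. RpLP0 (FBgn0000100), the base protein of the P stalk, ranked 344, 152 and 220, a mean of 239 ± 97.4, and replicate 1 gave its weakest value. RpL32, often used as a reference transcript in fly work under the name rp49, ranked 189, 172 and 393, a mean of 251 ± 123. RpL13A ranked 247, 170 and 374, a mean of 264 ± 103. These means differed by less than 1 SD of any of them. RpL13 ranked 238, 175 and 381 (mean 265 ± 106), and RpL8, which lies near the peptidyl transferase centre, ranked 188, 199 and 433 (mean 273 ± 138). RpL30 ranked 187, 114 and 538, a mean of 280 ± 227, the widest spread of the 10. RpL41, which encodes the smallest protein of the ribosome, ranked 149, 342 and 441, a mean of 311 ± 149. Read within each replicate, part of the order was repeated. Of the 45 pairs among the 10 genes, 18 had the same order in all 3 replicates. RpL14 ranked ahead of 7 of the other genes in every replicate, RpL31 ahead of 6 and RpL24 ahead of 5. No gene of the remaining 7 ranked ahead of another of the 10 in every replicate.

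Most peaks of large subunit genes were narrower than the most common peak width, and those given here each covered an annotated TSS. In dm6 coordinates the peak of RpL14 covered chr3L:8600840-8601139, that of RpL24 chr2L:13394967-13395270, that of RpLP0 chr3L:22075955-22076215 and that of RpL30 chr2L:19009114-19009399. The median width over the 40 members was 254.5 bp, with the narrowest at RpL36 (94 bp). The 10 genes listed above all had wider peaks than this median, from 261 bp at RpLP0 to 403 bp at RpL32. The width of 370 bp, which 53.8% of thresholded peaks share, was found at 12.5% of bound large subunit genes against 56.3% of other bound genes. The members with it were RpL34a, RpL35, RpLP0-like, RpLP2 and RpL29, at pooled ranks of 763 to 2963. Other bound genes also ranked weaker, with a median of 1903 against 561.5, and the part of rank in the difference in width was not tested.

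RpL7 had the best rank of the large subunit genes in the pooled list (89), with 82 in replicate 1 and 70 in replicate 2, yet no entry of replicate 3 lay within 500 bp of its TSSs. The same was true of 8 further bound genes, RpL3, RpL11, RpL29, RpL35A, RpL36, RpL36A, RpL37A and RpLP0-like. Their nearest replicate 3 entries lay 2240 to 25662 bp away, although their pooled ranks covered the whole range from 89 to 2963. Among all 1869 bound genes 14.8% had no replicate 3 entry within 500 bp, against 0.642% for replicate 1 and 1.39% for replicate 2. Of the 40 bound members 9 lacked it in replicate 3 and none lacked it in replicates 1 and 2.

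Where an entry was present, the replicates ordered the genes much alike. Spearman's rho between ranks was 0.897 for replicates 1 and 2 over 40 genes, 0.773 for replicates 1 and 3 and 0.810 for replicates 2 and 3 over 31 genes each. These values are descriptions across genes, all chosen from a list made from the same 3 libraries. Over the 31 genes with an entry in every replicate, replicates 1, 2 and 3 gave median ranks of 599, 370 and 654. Over all 40 bound genes, replicates 1 and 2 gave medians of 653.5 and 392. Ranks were weaker in replicate 3 than in replicate 1 at 27 of 31 genes, and weaker than in replicate 2 at 29 of 31. For these 31 genes the median of the mean rank was 506.

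**Figure D2:**
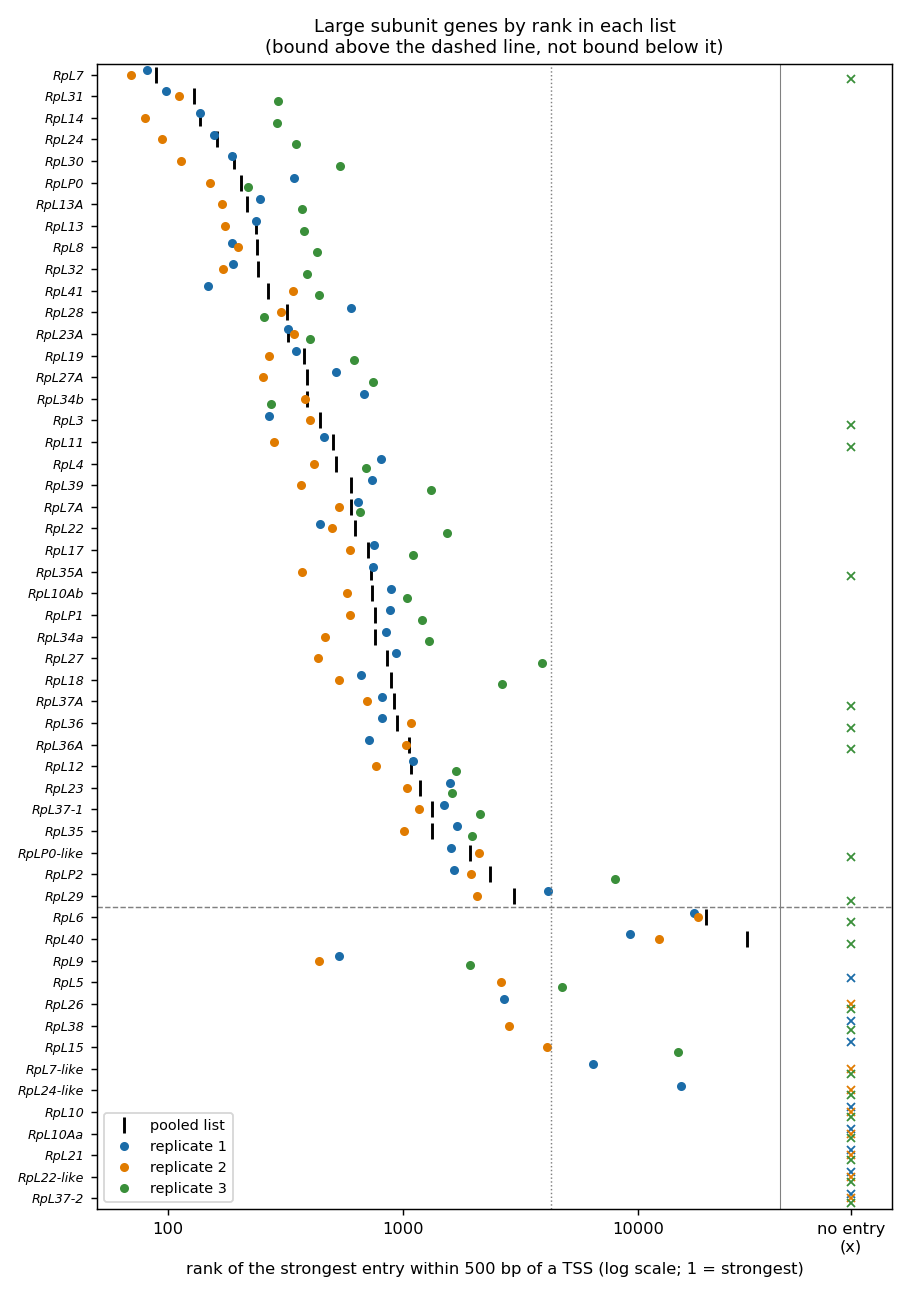
Rank of the strongest entry within 500 bp of a TSS (x axis, log scale, 1 is strongest) for the large subunit genes (rows), in the pooled list (black bars) and in each replicate (points); crosses mark replicates without such an entry, the dotted line the rank of 4261. Genes above the dashed line are bound, from RpL7 at pooled rank 89 to RpL29 at 2963, and replicate 3 points lie mostly to the right.

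The summits sat on the start sites. The position of the best thresholded summit was taken from the nearest TSS of the gene, negative when upstream. Its median was -9 bp over the 40 bound large subunit genes, 0.5 bp over the 24 bound small subunit genes and -108 bp over the 1800 other bound genes. The median distance without sign was 15.5 bp for large subunit genes, 15.5 bp for small subunit genes, 124 bp for the mitochondrial genes and 134.5 bp for the other bound genes. A summit within 50 bp of a TSS was found at 36 of all 54 large subunit genes (66.7%, background 3.59%), at 20 of 38 small subunit genes and at none of the 47 mitochondrial genes. Among bound genes only, 90.0% of large subunit genes and 22.1% of other genes had a summit within 50 bp, and 62.5% and 8.56% had it within 20 bp.

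Positions ran from 99 bp upstream at RpLP0-like to 33 bp downstream at RpL37-1, with 28 of 40 upstream of the nearest TSS (70%, against 73.6% of the other bound genes). In genes with several TSSs such a summit can lie downstream of the most upstream TSS, as at RpL30, RpL35 and RpLP0. RpL23A, RpL32, RpL34b and RpLP0-like were the members beyond 50 bp, all of them upstream. In replicates 1, 2 and 3 taken alone the median position was -5, -12 and -15 bp. Within a gene the positions in the 3 replicates, each taken from the TSS nearest to that summit, had a median range of 24 bp. This range was at most 105 bp (RpL34a) and 50 bp or less at 25 of 31 genes, against a median of 49 bp over 1508 other bound genes. In a gene with several TSSs it can differ from the distance between the summits themselves. At RpL30 the summit lay 15 bp upstream of the nearest of its 2 TSSs in the pooled list and in every replicate.

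**Figure D3:**
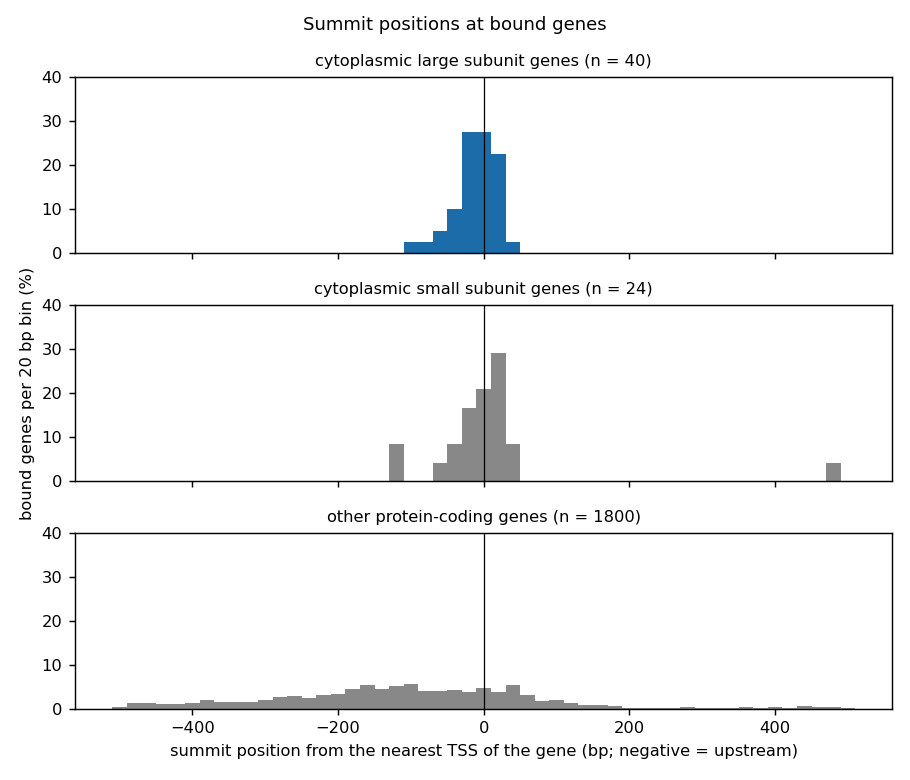
Position of the best thresholded summit relative to the nearest TSS of the gene (x axis, bp, negative is upstream), as percent of bound genes per 20 bp bin (y axis), for 40 large subunit, 24 small subunit and 1800 other genes. The subunit genes peak at the TSS, with medians of -9 and 0.5 bp, whereas the other genes spread over the upstream side with a median of -108 bp.

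By role in the ribosome, all 4 genes of the P stalk and its base were bound. The counts by role stand beside a bound share of 74.1% over all 54 members and 13.4% over all protein-coding genes. RpLP0 had pooled rank 206, RpLP1 760, RpL12, which joins the stalk to the subunit, 1084, and RpLP2 2336. RpLP2 ranked 1641, 1954 and 7988 in replicates 1, 2 and 3, the weakest replicate 3 rank of any bound member, so the stalk genes that work together in the ribosome differed widely in peak strength. RpL5 and RpL11 bring 5S ribosomal RNA into the subunit. RpL11 was bound at pooled rank 503 and RpL5 was not bound. Of the core proteins near the peptidyl transferase centre, RpL8 (239) and RpL3 (443) were bound and RpL10, which is added late in assembly, was not.

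Of the 8 genes for proteins that line the exit tunnel or its rim, 7 were bound, at pooled ranks of 129 to 1334. They were RpL31 (129), RpL23A (325), RpL19 (381), RpL4 (521), RpL39 (602), RpL17 (713) and RpL35 (1334), and RpL26 was not bound. RpL40, which is made as a fusion with ubiquitin, was not bound. Of the 25 other subunit proteins 20 were bound, with a median pooled rank of 378.5. The role groups with more than 2 bound members overlapped in rank. The groups are small, and whether their bound shares differ from the 74.1% of all members was not tested.

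Paralogs of the same protein differed. The promoters of RpL34a and RpL34b and of RpL10Ab and RpL10Aa are shown in the form used above, to set a bound pair beside a pair of which a single gene was bound. Their windows are RpL34a at chr3R:26059238-26059337 (- strand), RpL34b at chr3R:9401197-9401296 (- strand), RpL10Ab at chr3L:11822781-11822880 (+ strand) and RpL10Aa at chr3R:15037296-15037395 (+ strand).
RpL34a: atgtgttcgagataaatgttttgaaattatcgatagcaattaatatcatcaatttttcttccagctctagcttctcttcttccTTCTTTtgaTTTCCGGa
RpL34b: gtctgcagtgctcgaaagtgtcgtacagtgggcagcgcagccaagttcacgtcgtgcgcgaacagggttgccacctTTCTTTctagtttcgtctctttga
RpL10Ab: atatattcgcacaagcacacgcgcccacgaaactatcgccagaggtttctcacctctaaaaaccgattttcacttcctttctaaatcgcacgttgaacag
RpL10Aa: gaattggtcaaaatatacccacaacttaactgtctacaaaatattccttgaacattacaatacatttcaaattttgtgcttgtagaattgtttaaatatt

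RpL34a and RpL34b were both bound, with ranks of 848, 466 and 1286 at RpL34a and 683, 382 and 276 at RpL34b in replicates 1, 2 and 3. Their mean ranks were 867 ± 410 and 447 ± 211 (SD, n = 3), and RpL34b ranked above RpL34a in each replicate. The summit lay 9 bp upstream at RpL34a and 83 bp upstream at RpL34b. RpL10Ab was bound, with ranks of 888, 581 and 1037, whereas RpL10Aa had no entry within 500 bp in any of the 5 lists. The printed windows of RpL10Ab and RpL10Aa held none of the marked letters. Within these windows the letters thus did not set the bound gene of this pair apart from the unbound gene, and sequence beyond them is not shown.

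RpL22 was bound with ranks of 443, 501 and 1541, and RpL22-like, a paralog known from the fly germline, had no entry within 500 bp. RpL37-1 was bound with ranks of 1491, 1168 and 2128, and RpL37-2 had none. In these 3 pairs, a single gene of each pair was bound. Of the 3 genes that resemble subunit proteins but are related to ribosome assembly factors, RpL7-like and RpL24-like were not bound. RpLP0-like was bound at pooled rank 1927, with ranks of 1595 and 2111 in replicates 1 and 2. Its summit was 99 bp upstream of its own TSS and 12 bp from that of 14-3-3zeta, which encodes an adaptor protein of signalling pathways. By position this peak was thus nearer to the neighbour, although it counts for RpLP0-like under the 500 bp rule.

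RpLP0-like was the exception among the 40, since in the other 39 the nearest protein-coding TSS was their own. A second protein-coding gene nevertheless had a TSS within 500 bp of the summit at 19 of the 40. RpL13 shares its start region with Dref, the gene for the factor that binds the DNA replication-related element (DRE), whose TSS was 97 bp from the summit against 4 bp for RpL13. RpL14 lies beside Nelf-E, a subunit of the negative elongation factor (118 bp against 9 bp). At RpL28 the neighbour was eIF1, a translation initiation factor (344 bp against 37 bp). At RpL7 the summit was 79 bp from the TSS of Ripalpha and 47 bp from that of RpL7, the closest call after RpLP0-like. A divergent neighbour, with a TSS within 500 bp upstream on the other strand, was present at 22 of 54 large subunit genes (40.7%) against 27.4% of all genes. It was present at 20 of the 40 bound members and at 2 of the 14 unbound members. The shares among all bound and all unbound genes are not given here, so this difference cannot be read as particular to the large subunit genes.

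The 14 unbound members fell into several kinds. The bound member nearest to the 500 bp limit was RpLP0-like at 99 bp. RpL26 lay outside the limit, with its nearest thresholded summit 629 bp away. An entry of rank 2691 in replicate 1 lay 51 bp from a TSS of RpL26. RpL6 had weak entries, at pooled rank 19345 and 40 bp from the TSS and at ranks 17179 and 17911 in replicates 1 and 2. RpL40 likewise had rank 28881 in the pooled list and 9218 and 12267 in replicates 1 and 2, with its pooled summit 154 bp downstream of the TSS. Both pooled ranks lie beyond 10242, the number of pooled entries that reached a q-value of 0.05. RpL24-like (rank 15229, 79 bp) and RpL7-like (rank 6427, 313 bp) had an entry in replicate 1 only. RpL10Aa, RpL22-like and RpL37-2 had none in any list.

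RpL9 stood apart from these. It had an entry near its TSS in all 3 replicates, with ranks of 534, 439 and 1920 at distances of 28, 32 and 10 bp, beside median ranks of 599, 370 and 654 over the 31 bound members with an entry in every replicate. The nearest entry of the pooled list was nevertheless 17368 bp away, and the gene was not in the thresholded list. Of 994 genes marked by all 3 replicates, 5 had no pooled entry within 10 kb of a TSS, namely RpL9, CG13016, CG13018, Cds and Uba2. By the replicate lists alone, RpL9 would count as bound.

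The remaining 5 unbound members, RpL5, RpL10, RpL15, RpL21 and RpL38, lie toward the centromere of their chromosome arms, where the pooled list was empty over long distances. Their nearest pooled entries were 387750, 149927, 4321711, 98933 and 1165513 bp away, in the same order of genes. On arm 3L, of 28110227 bp, the last pooled entry stood at 22945544 and the last replicate 1 entry at 22911644, whereas replicate 2 reached 27267241 and replicate 3 reached 27970729. RpL15 had entries in those replicates, at rank 4079 and 14 bp from the TSS in replicate 2 and at rank 14787 and 31 bp in replicate 3. RpL5 had rank 2616 at 19 bp in replicate 2 and rank 4758 at 8 bp in replicate 3. Both replicate 3 ranks lie beyond 4015, the number of replicate 3 entries that reached a q-value of 0.05. RpL38 had rank 2823 at 22 bp in replicate 2. RpL10 and RpL21 had no entry within 500 bp in any list. RpL5, RpL15 and RpL38 thus had replicate entries at the TSS without a pooled entry near by.

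With RpL9, 6 of the 54 members (11.1%) had no pooled entry within 10 kb of a TSS, against 15.1% of all protein-coding genes. Among genes that had such an entry, 40 of 48 large subunit genes were bound (83.3%) against 15.8% of all genes.

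**Figure D4:**
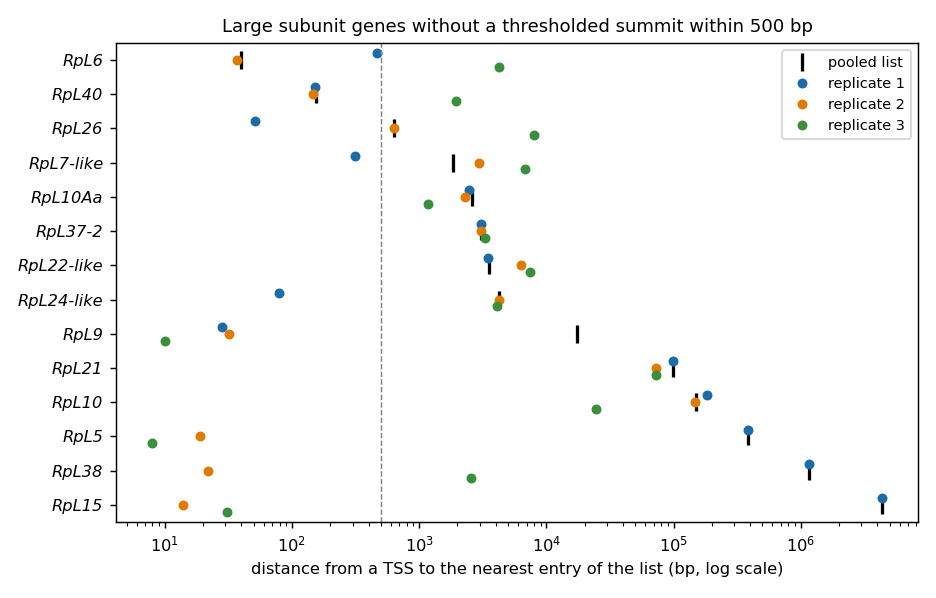
Distance from a TSS to the nearest entry (x axis, bp, log scale) in the pooled list (black bars) and in each replicate (points) for the 14 unbound large subunit genes (rows); the dashed line marks 500 bp. RpL9, RpL5, RpL38 and RpL15 have replicate entries within 32 bp of a TSS while their nearest pooled entry is 17368 bp or more away.

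The promoters of some unbound members are printed to set beside those of the bound genes. The windows are RpL15 at chr3L:27267185-27267284 (+ strand), RpL40 at chr2L:4227629-4227728 (+ strand), RpL9 at chr2L:11004160-11004259 (- strand) and RpL6 at chr3R:31596175-31596274 (- strand), with the most upstream TSS used for each.
RpL15: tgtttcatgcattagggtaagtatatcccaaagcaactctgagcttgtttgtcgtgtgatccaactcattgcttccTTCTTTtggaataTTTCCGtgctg
RpL40: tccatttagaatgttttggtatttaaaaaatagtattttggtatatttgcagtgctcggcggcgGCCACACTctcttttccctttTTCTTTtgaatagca
RpL9: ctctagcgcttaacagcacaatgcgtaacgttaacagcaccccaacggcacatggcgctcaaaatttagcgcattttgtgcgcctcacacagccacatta
RpL6: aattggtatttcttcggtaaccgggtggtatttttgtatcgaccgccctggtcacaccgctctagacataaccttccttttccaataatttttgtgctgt

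RpL15 and RpL40 carried the marked letters although no thresholded peak was called there, and the window of RpL40 held both TTCTTT and GCCACACT. The windows of RpL9 and RpL6 held none of them, and RpL9 had entries in all 3 replicates. RpL9 has 2 TSSs, and its replicate summits lay 28, 32 and 10 bp downstream of the nearest. Sequence beyond the printed windows is not shown, so the letters may lie outside them. Within the windows, the marked letters appeared on both sides of the call. RpL15 and RpL9, however, had no pooled entry within 10 kb and had replicate entries at the TSS, so their call does not show that binding was absent. The entries of RpL15 were weaker than those of RpL9, with none in replicate 1 and ranks of 4079 and 14787 in replicates 2 and 3.

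The 10 most frequent 6-mers within 50 bp of the 40 large subunit summits included runs of T and C. The 6-mer TTCTTT or its reverse complement was present at 26 of 40 large subunit summits (65.0%), at 58.3% of small subunit summits and at 10.8% of 1669 other promoter summits. TTTCCG was present at 57.5% of large subunit, 37.5% of small subunit and 8.39% of other summits. TTCCGG, which overlaps TTTCCG, was present at 50% of large subunit, 25.0% of small subunit and 3.59% of other summits. The 6-mers were picked on these windows, so the shares at large subunit genes are high by construction. The small subunit shares come from windows not used in picking. Summits of other bound genes lay a median of 134.5 bp from the TSS, against 15.5 bp at large and at small subunit genes. Their windows thus covered other parts of the promoter, and the part of this position in the shares was not tested.

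The letters had an orientation. All 26 summits with TTCTTT held it on the transcribed (sense) strand and none on the other, and the median match began 13 bases after the summit. TTCCGG was on the sense strand at 19 summits and on the other strand at 3. At least 1 of the 3 was found at 33 of the 40 summits. RpL10Ab, RpL13, RpL23A, RpL32, RpL34b, RpLP0-like and RpLP2 were the 7 without any, and RpL13 and RpL32 are among the 10 strongest. At RpL32, RpL23A and RpL34b, whose summits lay farther upstream than most, the 50 bp to either side of the summit did not reach the letters beside the TSS. Within 50 bp of a TSS, at least 1 of the 3 was present at 46 of 54 large subunit genes (85.2%), 73.7% of small subunit genes, 12.8% of mitochondrial genes and 21.9% of all genes. Among large subunit genes they were present at 36 of 40 bound and at 10 of 14 unbound members.

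The 8-mer GCCACACT was noticed while the sequences were read and carries no weight as evidence. It was present within 50 bp of a TSS at 9 of 54 large subunit genes (16.7%), 7.89% of small subunit genes and 1.81% of all genes. At summits it was present at RpL11, RpL18, RpL24, RpL35A and RpLP2, 12.5% of large subunit summits against 0.719% of other promoter summits. Of the marked letters it was the only kind found at the summit of RpLP2.

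**Figure D5:**
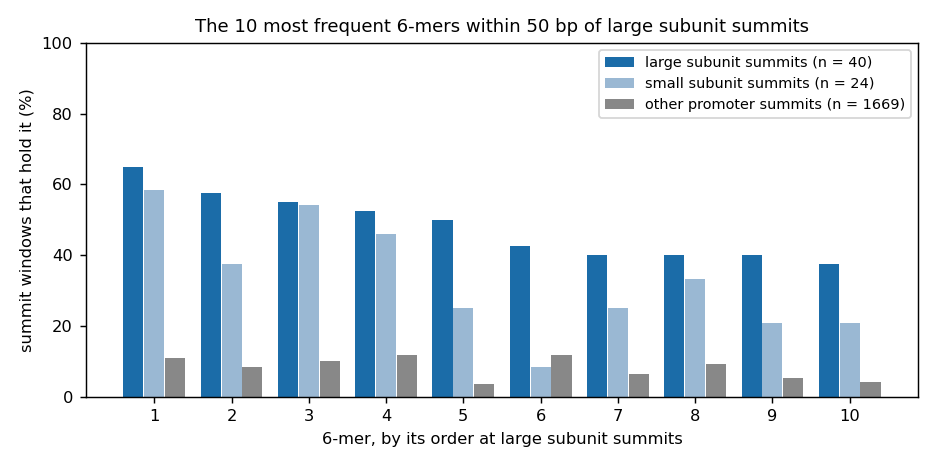
Percent of summit windows (y axis, summit with 50 bp to either side) that hold each of the 10 most frequent 6-mers of large subunit summits (x axis, by order), for 40 large subunit, 24 small subunit and 1669 other promoter summits. Number 1 is TTCTTT, number 2 is TTTCCG and number 5 is TTCCGG, and numbers 1 to 5 stand at 50 to 65.0% of large subunit summits and 3.59 to 11.9% of other summits.

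Known promoter elements were searched within 250 bp of every TSS, on both strands except the TATA box and the TCT initiator. The TCT initiator, searched as CTTTNT with its C within 5 bp of a TSS, was found at 15 of 54 large subunit genes (27.8%), 42.1% of small subunit genes and 2.12% of all genes. It was present at 12 of 40 bound members, RpL7, RpL13, RpL30 and RpL32 among them, and at 3 of 14 unbound members, RpL5, RpL21 and RpL7-like. The share depends on where the annotation places the start, and was 9.26% with the C within 2 bp and 40.7% with the C within 10 bp of a TSS, against 0.911% and 4.20% of all genes. The E-box CACGTG, the site class to which the growth regulator Myc binds, was found at 27 of 54 large subunit genes (50%), 34.2% of small subunit genes and 8.63% of all genes. It was present at 22 of the 40 bound and 5 of the 14 unbound members.

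The DRE, TATCGATA, was found at 27.8% of large subunit genes and 10.5% of all genes, in 11 of 40 bound and 4 of 14 unbound members. Motif 1, GGTCACACT, the site of the factor M1BP, was found at 13.0% of large subunit genes and 6.96% of all genes, in 7 bound members and no unbound member. TATAAA was found at 42.6% of large subunit genes and 44.7% of all genes, and GAGAG at 38.9% and 49.6%. CGATA, which is contained in the DRE, was found at 79.6% and 64.9%. Within 50 bp of the summits the DRE was present at 12.5% of large subunit genes and 1.20% of other promoter peaks, motif 1 at 10% and 0.839%, the E-box at 10% and 1.44%, and GAGAG at 7.50% and 18.5%. Mean GC content of the summit windows was 46.3% at large subunit genes, 48.2% at small subunit genes and 41.3% at other promoters. Its part in the motif shares was not tested. The summits also lay at different distances from the TSS, a median of 15.5 bp at large subunit genes and 134.5 bp at other bound genes. The summit windows thus covered different parts of the promoter, and the part of this position in the summit shares was not tested.

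The large subunit genes shared other features that the choice by symbol did not use. The 54 genes lay on 2L (13 genes, 8 bound), 2R (14, 11 bound), 3L (10, 7 bound), 3R (11, 8 bound) and X (6, all bound). These counts stand beside a bound share of 74.1% over all 54 members and 13.4% over all protein-coding genes. They were short, with a median length of 1315 bp against 2166 bp for all genes, and their shortest annotated 5' untranslated region had a median of 46.5 bp against 100 bp. The median number of TSSs was 1 both for large subunit genes and for all genes. Small nucleolar RNA genes, which guide the chemical modification of ribosomal RNA, lay inside 16 of the 54 genes (29.6%) against 0.602% of all genes. There were 33 of them, with 5 in RpL28 and 4 each in RpL3, RpL17 and RpL23A. Of the 16 host genes 14 were bound, beside 40 of all 54 members (74.1%). The bound share among all host genes of the annotation is not given here.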

How the data were processed

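GFP-tagged CG12071 was immunoprecipitated from embryos in 3 biological replicates of 1 group, numbered as in the labels. Per the labels of the files, calling was done on each replicate and on pooled alignments against a control, and a thresholded list was derived with the irreproducible discovery rate (IDR). Per the labels the assembly was dm6. The aligner and the caller are not given in the sources used here, and read depth is unknown from these files. The deposited signal value of a peak is a score of unstated scale that the authors' caller gave, used for ranks within a list. The −log10 q-value deposited by the authors was used to count or select entries at 0.05 or less. It was also used to compare the peaks of bound members with the highest value of the pooled list. Each unthresholded list ended at 30000 entries.

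Gene models and 19607 TSSs were those of Ensembl release 115 (BDGP6.54), and bases were read from RefSeq's copy of genome release 6, with the coordinates of dm6. The best entry of a gene was the strongest with its summit within 500 bp of a TSS. Counts are given beside those of all protein-coding genes, with Wilson 95% intervals. No test was made, since there was 1 group. Named were the 10 bound members with the best mean rank among those with an entry in every replicate, all unbound members, paralogs and assembly factors, members whose summit was nearest to another gene, and members next to the 500 bp limit. A member that enters all counts is not reported here by name or in the plot of ranks. Other members were named as examples after their values were seen. The members, role lists, motifs and comparison groups were chosen with earlier results of these data known. Alternatives were other TSS windows, 1 TSS per gene, other peak filters and numbers of strongest entries, other distances for the TCT initiator, and leaving out each replicate. Computations used Python 3.11.15, NumPy 2.4.6, pandas 2.3.3, SciPy 1.17.1 and matplotlib 3.10.9 and were tested on simulated data.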

Additional observations from a re-analysis of the deposited data

How the results depend on the processing

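Of 32 alternative values computed for 6 results, 5 moved beyond a margin set by the kind of value and 27 did not. The margin was 1.5 times for a count, 1 SD between replicates for a share of entries, rank or distance, and the Wilson interval for the TCT share, so values inside it could still differ visibly. The count of 40 bound genes was 39 to 41 with other TSS windows, 1 TSS per gene or each peak given to the nearest TSS. It was 38 with the stronger part of the peaks and 40 with pooled entries that reached a q-value of 0.05. Over all protein-coding genes, the bound share was 10.5% and 16.6% with windows of 250 and 1000 bp, beside 13.4% as reported. That share was 7.54% with the stronger part of the peaks and 24.0% with the pooled entries. For 1 TSS per gene and the nearest TSS it is not given here. It was 29 with peaks supported in all 3 replicates, where all genes stood at 6.52%. For the count, leaving out a replicate meant keeping only thresholded peaks supported in each of the others. Bound genes then numbered 29 without replicate 1, 30 without replicate 2 and 39 without replicate 3. The lower counts are thus those that required support in replicate 3. Shares over all genes are not given here for these settings. With a replicate dropped from the averages, the mean share was 67.6 to 79.6% and the median mean rank 499 to 632. The mean share was 52.5% with the 1000 strongest entries of each replicate, and the share over all genes at that number is not given here. The median distance to the TSS was 22.0 bp in replicate 3 alone and 27.0 bp with the most upstream TSS only. The share with the TCT initiator was 40.7% with its C within 10 bp of a TSS, 9.26% with it within 2 bp and 9.26% again with the most upstream TSS only. The cause of these moves was not tested, except that both searches giving 9.26% cover fewer positions by construction. A replicate left out still shaped the thresholded list, which drew on all of them. No paired analysis was possible because there was 1 group of samples and so no contrast to block by replicate. Gene groups and genes were set side by side within each replicate instead. The thresholded and pooled lists carry no replicate error of their own, and weak binding below rank 30000 cannot be seen.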
